A study of Mus musculus with 10 samples.

Results

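Glycolysis genes and genes that low oxygen induces were followed as 1 set of 31 in tumour-associated macrophages, 24 h after an antibody against the receptor tyrosine kinase MerTK. The 31 genes were taken by symbol from a list of glycolytic enzymes, glucose and lactate transporters and classic targets of the hypoxia-inducible factor HIF-1. All 31 were found among the 36528 gene identifiers of the deposited tables, and all 31 were among the 13588 genes with enough counts to test. Ero1l is listed today as Ero1a.

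The macrophages had been purified from tumours of the mouse colon carcinoma line MC-38 grown in C57Bl/6 mice, and polyadenylated RNA was sequenced. In 5 libraries the mice had received anti-MerTK, and in the other 5 they had received anti-gp120, an antibody against a viral envelope protein that serves as the control. The sources used here give no mouse age, antibody dose or sort strategy. The labels do not say whether each library came from a separate mouse, so the p-values measure the spread between these libraries, which may in part be technical.

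Glycolysis splits glucose into pyruvate in the cytosol, and lactate dehydrogenase then turns pyruvate into lactate, which leaves through a proton-coupled transporter. When oxygen is scarce, the prolyl hydroxylases that mark HIF-1 alpha for destruction slow down, and the stabilised factor pairs with ARNT and binds short DNA elements with the core ACGTG or GCGTG near its targets. Among those targets are most glycolytic enzymes, the genes that trim mitochondria by mitophagy, and secreted factors such as VEGF-A. Macrophages also raise glycolysis when they are activated through inflammatory receptors, and macrophages in poorly perfused tumour regions are known for expressing HIF-1 targets.

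None of the 31 genes passed the test between anti-MerTK and anti-gp120 in either direction (edgeR quasi-likelihood test, Benjamini-Hochberg adjusted p under 0.05 over all genes tested). Across all genes tested 1.85% of genes were called higher and 1.38% lower after anti-MerTK, 3.22% in either direction. The smallest adjusted p among the 31 was 0.117, for the mitophagy receptor Bnip3l (edgeR). At an unadjusted p under 0.05 there were 5 of 31 genes (16.1%), against 20.9% of all genes tested. Of these 5, Hk2, Pkm, Pfkfb3 and Ankrd37 were higher after anti-MerTK and Bnip3l was lower. DESeq2 also called 0 of the 31, while it called 9.19% of the genes to which it gave an adjusted p. Limma-voom with library weights called 1 of the 31, Bnip3l, lower (adjusted p = 0.0334), where its share of all genes called lower was 3.75%.

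The estimates leaned upward without passing the test. The log2 fold change of anti-MerTK over anti-gp120 was above 0 for 23 of the 31 genes (74.2%), against 49.0% of all genes tested, and its median was 0.15, against -0.0059. The size of this median moved with single libraries: it was 0.27 without anti-gp120 replicate 1 and 0.07 without anti-MerTK replicate 5. With anti-MerTK replicates 2 and 5 both left out it was 0.04, and in none of its 20 alternatives did it change sign. The 17 enzymes and transporters that carry glucose to exported lactate had 15 positive values and a median of 0.18, and the 14 other genes had 8 positive values and a median of 0.06. For 29 of the 31 genes the 95% interval of the change lay within 2-fold in both directions, and for 22 it lay within 1.5-fold. The exceptions at 2-fold were Ankrd37 and Adm. Genes of 1 pathway and the same libraries are not independent, so these counts describe the set and carry no test.

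**Figure D1:**
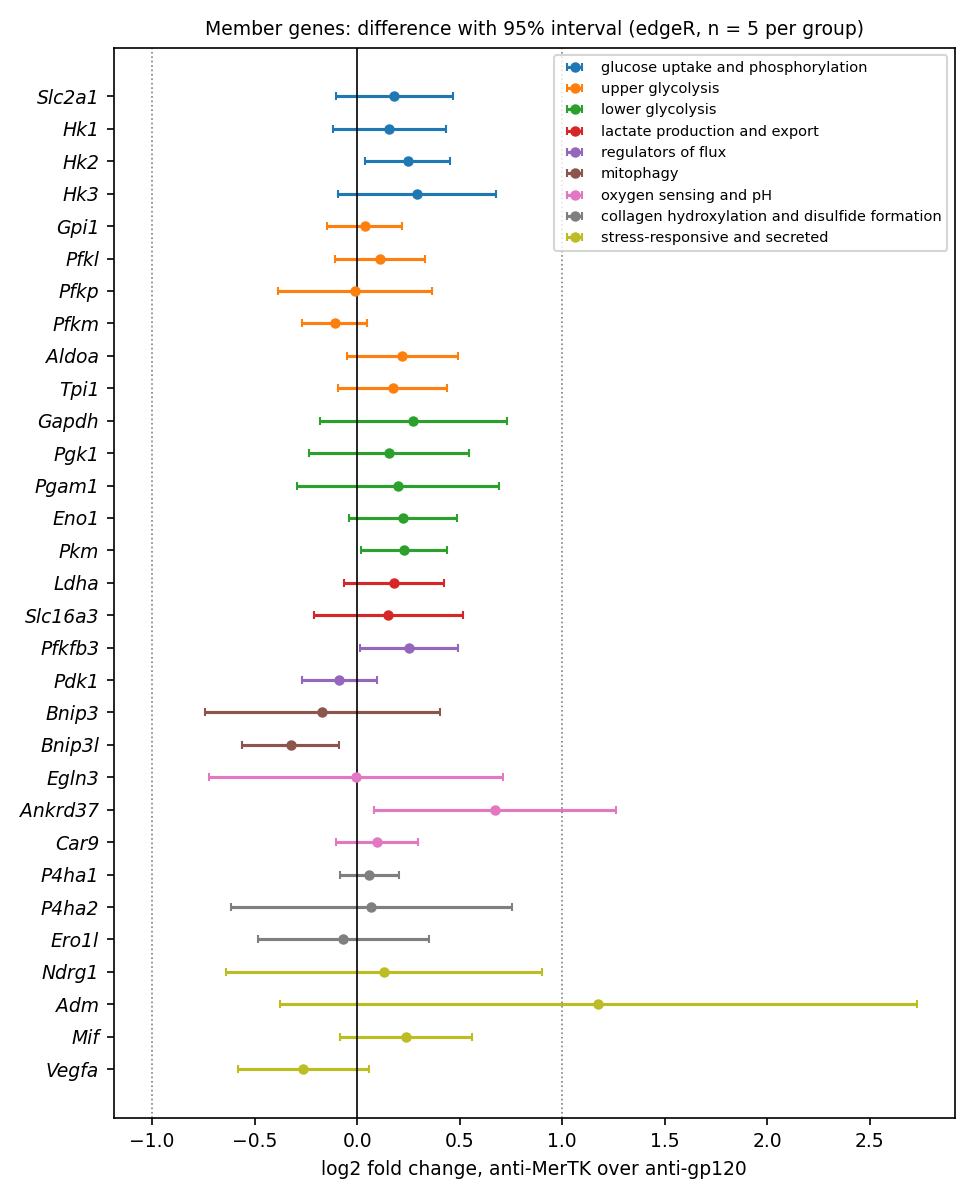
Log2 fold change of anti-MerTK over anti-gp120 for each of the 31 genes, with its 95% interval, ordered by role in the pathway, with dotted lines at a 2-fold change. Most points lie to the right of 0, 5 intervals (Hk2, Pkm, Pfkfb3, Ankrd37 and Bnip3l) exclude 0 before adjustment, and none of the genes passes the adjusted threshold.

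Sequencing depth was similar across libraries, from 33159858 to 46108687 uniquely aligned reads in genes. Macrophage markers were abundant in every library: the 12 listed genes summed to 38247.5 to 50872 CPM (counts scaled to a common library size) after anti-gp120 and 39314.5 to 47393 after anti-MerTK. Of these 12 markers 1 was called higher, the Fc receptor gene Fcgr1, with all anti-MerTK libraries above all controls. Of the 8 monocyte markers 1 was called higher, Plac8, and their sum ranged from 483 to 1276 CPM and from 718 to 1554 CPM. Fibroblast markers summed to 7.17 to 29.6 CPM and 6.26 to 41.6 CPM, with 0 of 5 tested genes called. Of the 7 epithelial or carcinoma markers, Cldn4 was at 0 in all libraries, Epcam, Krt18, Krt19 and Cldn3 stayed below 0.5 CPM, and 1 gene, Cdh1, was called lower. The 9 neutrophil markers summed to 60.6 to 104 CPM and 65.2 to 88.1 CPM, most of it from Csf3r, with 0 of 3 tested genes called. Of the 9, Ngp was at 0 in all libraries, and S100a9, Cxcr2, Retnlg, Ly6g and Camp stayed below 0.5 CPM. The mRNA of the antibody's target, Mertk, stood at 91.1 ± 14.3 CPM (SD, n = 5) after anti-gp120 and 78.9 ± 4.96 CPM (n = 5) after anti-MerTK, a log2 fold change of -0.21 (SE 0.10, edgeR adjusted p = 0.263). An antibody need not change its target's mRNA, so this value checks no label. In such bulk RNA, fewer cells of a type and less RNA per cell cannot be told apart.

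Glucose entry was the first step examined. Slc2a1, which encodes the glucose transporter GLUT1 (chr4:119108745-119137330, GRCm38.p6), stood at 291, 264, 195, 240.3 and 247 CPM in anti-gp120 replicates 1 to 5 and at 297, 231, 260.4, 251 and 364 CPM in anti-MerTK replicates 1 to 5. The groups overlapped, and anti-MerTK replicate 5 was the highest library of all. Its log2 fold change was 0.18 (SE 0.13), with an adjusted p of 0.452 in edgeR.

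The hexokinases trap glucose as glucose 6-phosphate. Hk2, the inducible isozyme (chr6:82725025-82774454), read 71.4, 63.0, 46.1, 64.3 and 59.4 CPM after anti-gp120, and 73.9, 71.1, 69.7, 71.9 and 74.1 CPM after anti-MerTK. The anti-MerTK libraries were tightly grouped and 4 of the 5 controls lay below all of them, while control replicate 1 lay within their range. The log2 fold change of Hk2 was 0.25 (SE 0.10, 95% interval 0.04 to 0.45, edgeR adjusted p = 0.167). Hk3, the isozyme typical of myeloid cells, read 602, 350.1, 363, 326 and 521 CPM in the controls and 559.7, 656, 476, 439.9 and 516 CPM after anti-MerTK. The 3 lowest libraries for Hk3 were controls, but control replicate 1 exceeded 4 of the 5 anti-MerTK libraries, and the log2 fold change of 0.29 (SE 0.18) had an edgeR adjusted p of 0.369. Hk1, the broadly expressed isozyme, went from 87.6 ± 13.5 to 97.6 ± 15.6 CPM (SD, n = 5 each).

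The upper steps of glycolysis cover isomerisation, the committed phosphofructokinase step, and cleavage to trioses. Aldoa, the main aldolase here, read 1844, 1554, 1284, 1305 and 1596 CPM after anti-gp120 and 1881, 1811, 1670.2, 1397 and 2078 CPM after anti-MerTK. The ranges overlapped over most of their length, and the log2 fold change was 0.22 (SE 0.12, edgeR adjusted p = 0.332). Tpi1, the triose isomerase, gave 0.17 (SE 0.12), Gpi1, the glucose phosphate isomerase, gave 0.04 (SE 0.09), and Pfkl, the liver-type phosphofructokinase, gave 0.11 (SE 0.10). The platelet-type gene Pfkp stood at 132 ± 40.8 against 131 ± 13.4 CPM, and control replicate 1 stood at 199 CPM beside 98.5 to 143 CPM in the other controls. The muscle-type gene Pfkm was among the least variable of the 31, at 13.7 ± 1.01 against 12.7 ± 0.304 CPM. The adjusted p-values of these 6 upper-glycolysis genes lay between 0.332 and 0.979 (edgeR).

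The lower steps yield ATP and end at pyruvate kinase. Pkm, which encodes the muscle and proliferative forms of that enzyme, read 1021, 872, 845, 766 and 912 CPM in the controls and 1069, 1138, 972, 883 and 1113 CPM after anti-MerTK. Anti-MerTK replicates 1, 2 and 5 exceeded every control, replicate 3 exceeded all but control replicate 1, and replicate 4 lay among the controls. The log2 fold change of Pkm was 0.23 (SE 0.10, 95% interval 0.02 to 0.44, edgeR adjusted p = 0.198). Eno1, the main enolase, gave 0.22 (SE 0.12), and Pgk1, phosphoglycerate kinase, gave 0.15 (SE 0.18). Gapdh and Pgam1 were listed at very low levels, 1.64 ± 0.0717 against 2.0 ± 0.683 CPM and 1.68 ± 0.503 against 1.93 ± 0.436 CPM.

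Only reads aligning uniquely were counted, and several glycolytic genes have many near-identical processed pseudogene copies. Each member's transcript was cut into 50-base windows, and the share found exactly at another, non-overlapping locus of the annotation was computed (GENCODE M21). That share was 90.4% for Gapdh, whose windows recurred at 222 other loci, 213 of them annotated as pseudogenes. It was 76.4% for Mif, 72.2% for Eno1, 68.0% for Pgk1, 48.9% for Bnip3 and 41.5% for Pgam1, and 12 of the 31 genes exceeded 5%. For 17 genes it was 0, among which were Slc2a1, Hk2, Pfkfb3, Adm, Ndrg1 and Vegfa. How the shared copies bear on the deposited levels, or on the comparison between groups, was not tested. The read length is unknown, and the window of 50 bases was a choice made without it.

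**Figure D2:**
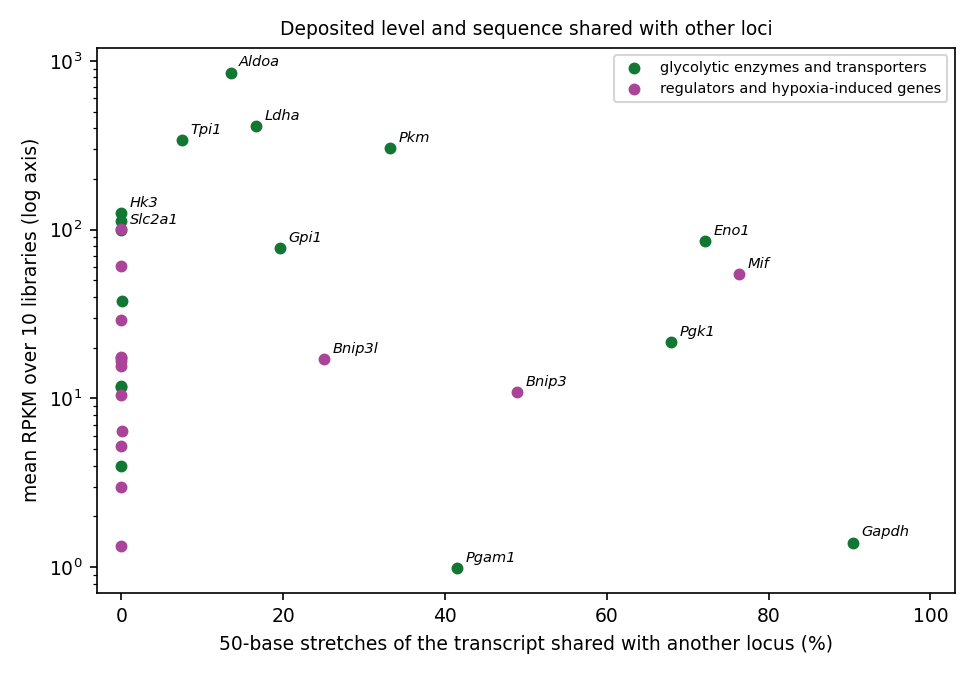
Share of each gene's 50-base transcript windows that occur exactly at another annotated locus, in percent (x axis), against the gene's mean deposited RPKM over 10 libraries on a log axis (y axis). Gapdh, with 90.4% of its windows shared, and Pgam1, with 41.5%, are the lowest glycolytic enzymes on the level scale, while Eno1 (72.2%), Mif (76.4%) and Pgk1 (68.0%) have high shares and higher levels.

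Pyruvate becomes lactate through Ldha, and lactate leaves through the monocarboxylate transporter MCT4, encoded by Slc16a3. Ldha read 938, 721, 684, 640.4 and 701 CPM after anti-gp120 and 860.2, 815, 801, 715 and 980.0 CPM after anti-MerTK. Control replicate 1 stood apart from the other controls, of which only replicate 2 exceeded the lowest anti-MerTK library. Its log2 fold change was 0.18 (SE 0.11, edgeR adjusted p = 0.388) with all libraries and 0.28 without control replicate 1. Slc16a3 read 387, 286, 212, 236 and 246 CPM in the controls and 317, 285, 271, 252.4 and 394 CPM after anti-MerTK, and gave 0.15 (SE 0.17, adjusted p = 0.638).

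Flux regulators sit beside the chain. Pfkfb3, which makes the phosphofructokinase activator fructose 2,6-bisphosphate, read 158, 148, 158, 174 and 199 CPM after anti-gp120 and 214, 234, 174, 212 and 165 CPM after anti-MerTK. The 3 highest libraries were anti-MerTK replicates 1, 2 and 4, and replicates 3 and 5 lay among the controls. Its log2 fold change was 0.25 (SE 0.11, 95% interval 0.01 to 0.49, edgeR adjusted p = 0.211). Pfkfb3 had a library order unlike most of the set, since anti-MerTK replicate 5, the highest for 21 of the 31 genes, was its lowest anti-MerTK library. Pdk1, a kinase that shuts pyruvate dehydrogenase, stood at 95.7 ± 10.9 and 90.1 ± 6.71 CPM and gave -0.09 (SE 0.08, adjusted p = 0.594).

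Both mitophagy receptors had negative estimates. Bnip3l, also called NIX, which recruits the autophagy machinery to mitochondria (chr14:66985238-67008877), read 60.3, 66.1, 69.2, 66.2 and 54.8 CPM after anti-gp120 and 49.7, 42.3, 46.2, 49.2 and 65.5 CPM after anti-MerTK. In 4 of the 5 anti-MerTK libraries the value lay below every control, and replicate 5 lay among the controls. The log2 fold change was -0.32 (SE 0.11, 95% interval -0.56 to -0.09, edgeR adjusted p = 0.117). Without anti-MerTK replicate 5 the gene passed the edgeR test, at -0.43 with an adjusted p of 0.0159, where 2.07% of all genes were called lower. Over its 20 alternatives the adjusted p ranged from 0.0159 to 0.263. Bnip3, the paralogue of Bnip3l, read 30.2, 19.3, 19.5, 14.4 and 17.0 CPM in the controls and 17.9, 12.9, 14.7, 13.6 and 30.2 CPM after anti-MerTK. The top library of each group stood apart at the same level, and the log2 fold change of -0.17 (SE 0.26, adjusted p = 0.745) ranged from -0.44 to 0.02 when single libraries were left out.

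The oxygen-sensing and pH genes were Egln3, Ankrd37 and Car9. Egln3, the prolyl hydroxylase PHD3 that HIF-1 itself induces, read 44.2, 29.4, 20.6, 19.3 and 26.1 CPM after anti-gp120 and 33.6, 17.1, 25.8, 15.6 and 46.9 CPM after anti-MerTK. The libraries of either group spanned more than 2-fold, the means were 27.9 and 27.8 CPM, and the log2 fold change was -0.01 (SE 0.32). Ankrd37, a small ankyrin-repeat protein and HIF-1 target, read 4.83, 3.89, 3.02, 2.22 and 2.97 CPM and then 6.47, 3.83, 5.11, 3.26 and 8.33 CPM. Its 3 highest libraries were anti-MerTK replicates 1, 3 and 5, and its log2 fold change of 0.67 (SE 0.27, 95% interval 0.08 to 1.26) had an edgeR adjusted p of 0.183. Car9, a membrane carbonic anhydrase that acidifies the extracellular space, stayed at 13.5 ± 1.6 and 14.4 ± 0.893 CPM and gave 0.10 (SE 0.09), an interval of -0.10 to 0.30.

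Collagen maturation and disulfide formation were represented by 3 genes. P4ha1, the main catalytic subunit of collagen prolyl 4-hydroxylase here, was steady at 248 ± 14.6 and 259 ± 15.2 CPM (log2 fold change 0.06, SE 0.07). P4ha2, the other catalytic subunit, read 19.1, 14.5, 8.30, 7.39 and 10 CPM after anti-gp120 and 13.8, 8.58, 14.5, 7.25 and 18.2 CPM after anti-MerTK, more than a 2-fold span within each group. Ero1l, the oxidase that drives disulfide bonds in the endoplasmic reticulum, went from 74.7 ± 17.6 to 71.3 ± 18.4 CPM. The adjusted p-values of the 3 genes lay between 0.648 and 0.921 (edgeR).

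The stress-responsive and secreted genes were Ndrg1, Adm, Vegfa and Mif. Ndrg1, a stress-induced gene linked to differentiation, read 82.4, 53.7, 29.3, 32.0 and 50 CPM in the controls and 68.5, 43.4, 47.7, 25.7 and 85.7 CPM after anti-MerTK. Adm, which encodes the vasodilator peptide adrenomedullin, read 2.80, 1.37, 0.244, 0.649 and 0.564 CPM and then 5.25, 1.30, 2.04, 0.408 and 3.76 CPM. Adm had the largest positive estimate of the set, 1.18 on the log2 scale, and also the largest error (SE 0.70, 95% interval -0.38 to 2.73, edgeR adjusted p = 0.365). Vegfa, the endothelial growth factor (chr17:46016993-46032377), read 390.0, 486, 413, 594 and 404 CPM in the controls and 317, 301, 391, 427 and 469.8 CPM after anti-MerTK. The 2 lowest libraries for Vegfa were anti-MerTK and the 2 highest were controls, with overlap between 390.0 and 469.8 CPM, and the log2 fold change was -0.26 (SE 0.15, adjusted p = 0.327). Mif, a macrophage cytokine, gave 0.24 (SE 0.15, adjusted p = 0.382).

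The larger differences ran between libraries of the same group. The median within-group SD of the 31 genes was 0.235 on the log2 scale (CPM plus 0.5), against 0.171 over all genes tested, and 24 of the 31 exceeded that value. Adm had the highest SD at 0.947, followed by Ndrg1 at 0.630, Egln3 at 0.567, P4ha2 at 0.539, Bnip3 at 0.440 and Ankrd37 at 0.439, while Pfkm at 0.077 and P4ha1 at 0.084 had the lowest. The median was 0.216 for the 17 glycolytic genes and 0.303 for the 14 others. In 7 genes the highest control was at least 2-fold above the lowest, in 7 the same held after anti-MerTK, and 6 genes were in both counts.

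The same libraries led for most genes. Anti-gp120 replicate 1 was the highest of its group for 26 of the 31 genes (83.9%), whereas it was the highest for 18.3% of all genes tested. Anti-MerTK replicate 5 was the highest of its group for 21 (67.7%), against 26.5% of all genes, and 18 genes had both libraries on top. At the lower end, anti-MerTK replicate 4 was lowest for 18 genes (58.1%, against 14.6%), anti-gp120 replicate 3 was lowest for 12 (38.7%, against 26.0%) and anti-gp120 replicate 4 for 13 (41.9%, against 16.9%). The median deviation of the 31 genes from the group mean was 0.30 in anti-gp120 replicate 1, 0.25 in anti-MerTK replicate 5 and -0.23 in anti-MerTK replicate 4, on the log2 scale. These counts follow genes in the same 10 libraries and are a description with no test.

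**Figure D3:**
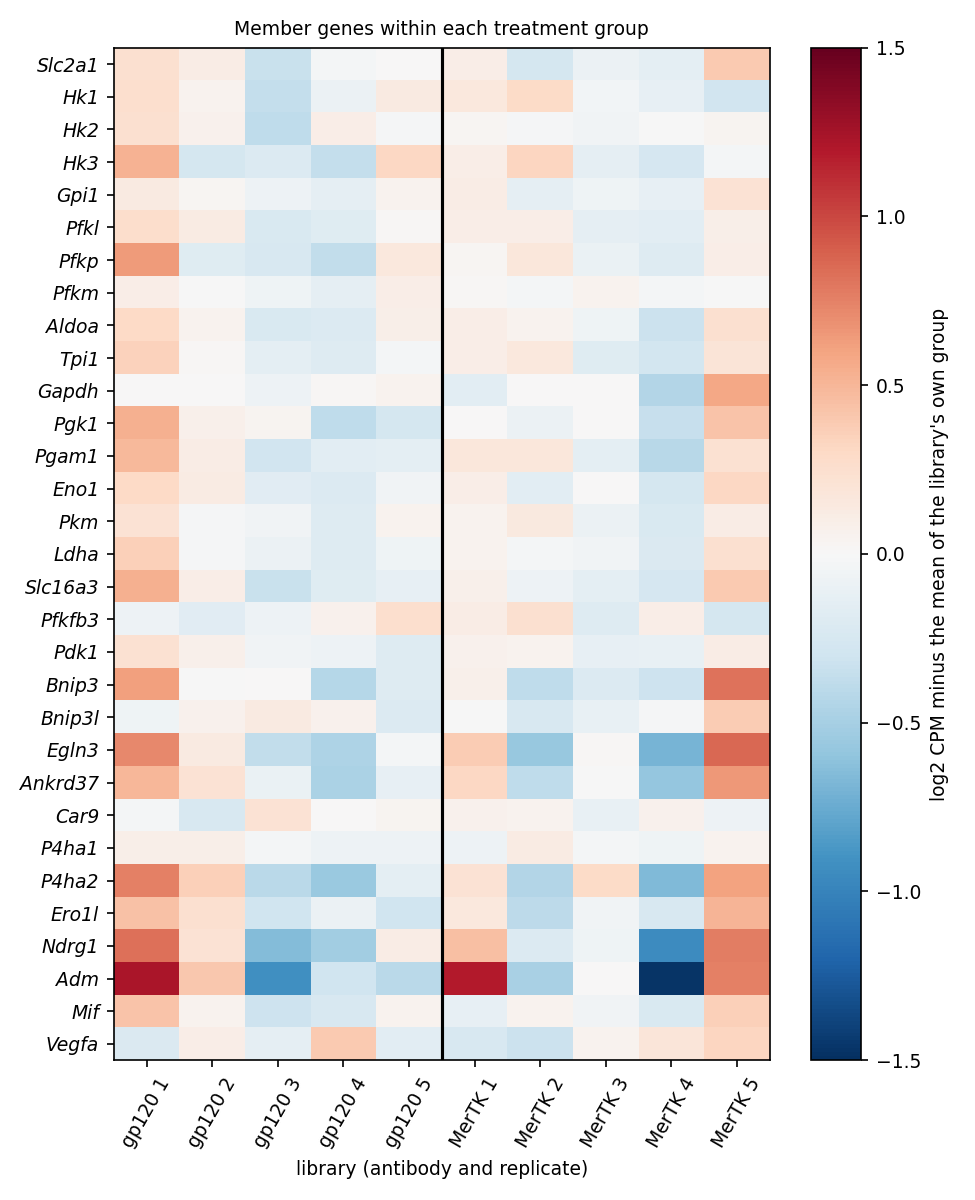
Deviation of each gene (vertical axis, by role) from the mean of its own group in each of the 10 libraries (horizontal axis), as a colour on the log2 scale of CPM plus 0.5. Anti-gp120 replicate 1 and anti-MerTK replicate 5 are above their group mean for most genes, and anti-MerTK replicate 4 is below.

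Markers of other cells differed between the same libraries, with some lists higher there and others lower. Fibroblast markers summed to 41.6 CPM in anti-MerTK replicate 5 and 6.26 to 15.1 CPM in the other anti-MerTK libraries, and to 23.0 and 29.6 CPM in anti-gp120 replicates 1 and 2 beside 7.17 to 10.1 CPM in the other controls. Monocyte markers summed to 1554 CPM in anti-MerTK replicate 5, the highest of all. In anti-gp120 replicate 1 they summed to 1074 CPM, below replicate 2 at 1276 CPM. Neutrophil markers were lowest of their group at 60.6 CPM in anti-gp120 replicate 1 and 65.2 CPM in anti-MerTK replicate 5. B cell markers, at 19.8 and 17.6 CPM, were lowest there too. Endothelial markers stood at 82.0 CPM, the lowest control, and 74.6 CPM, above only anti-MerTK replicate 3. T cell markers led the anti-MerTK group in replicate 5 (12.9 CPM) but were mid-range in control replicate 1 (8.13 CPM). Dendritic cell markers (49.8 and 50.6 CPM) led neither group, but in anti-MerTK replicate 5 single markers went both ways. Ccr7 stood at 28.3 CPM there, against 2.47 to 5.89 CPM in the other anti-MerTK libraries. Xcr1 (11.3 CPM) and Clec9a (7.86 CPM) were the lowest of that group. In anti-gp120 replicate 1 these genes lay within the range of the other controls. Epithelial or carcinoma markers summed to 35.98 CPM in anti-gp120 replicate 1, the lowest control. In anti-MerTK replicate 5 they summed to 27.8 CPM, mid-range in that group. Cdh1 made up most of these sums, at 34.58 and 25.97 CPM. Within that list the keratin gene Krt8 went the other way, at 1.32 CPM in anti-gp120 replicate 1 and 1.56 CPM in anti-MerTK replicate 5. Krt8 stood at 1.27 CPM in anti-MerTK replicate 2 and at 0 to 0.049 CPM in the other libraries. The part of these markers in the spread was not tested. Without anti-gp120 replicate 1 and anti-MerTK replicate 5, an alternative chosen after seeing the data, 0 genes of the set were called higher, 1 was called lower (Bnip3l, log2 fold change -0.45, edgeR adjusted p = 0.022, where 2.5% of all genes were called lower) and the median log2 fold change was 0.17.

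**Figure D4:**
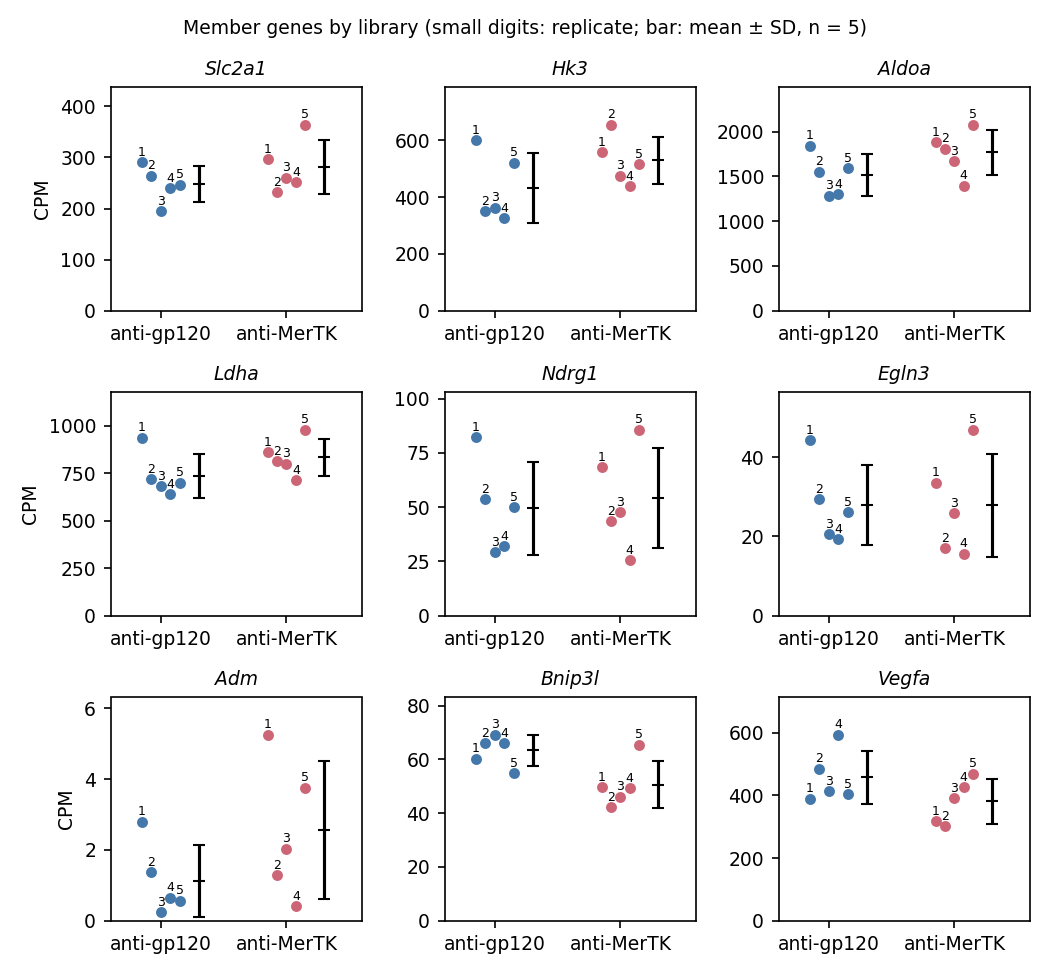
Level of 9 genes in each library, as CPM on a linear axis from 0, with 1 point per library numbered by replicate and a bar for the mean ± SD of each group (n = 5). For Ndrg1 and Egln3, replicate 1 of the controls and replicate 5 of the anti-MerTK libraries lie on top, and the group means differ by less than either SD.

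The promoters of Adm, Egln3, P4ha2, Ankrd37 and Bnip3, which are 5 genes of wide spread, and that of Ldha are printed to show the HIF-binding cores near their starts. Each runs 5′ to 3′ along the gene's strand from 250 bases before the annotated start to 50 after it (RefSeq, GRCm38.p6), with every ACGTG or GCGTG, or its reverse complement CACGT or CACGC, in capitals.
Adm (chr7:110627407-110627706, + strand): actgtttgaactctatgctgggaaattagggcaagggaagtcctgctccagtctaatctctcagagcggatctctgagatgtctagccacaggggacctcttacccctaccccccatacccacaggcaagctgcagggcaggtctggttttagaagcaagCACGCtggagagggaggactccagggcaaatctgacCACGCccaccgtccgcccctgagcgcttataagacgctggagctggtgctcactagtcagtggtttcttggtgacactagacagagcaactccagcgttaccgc
Egln3 (chr12:54203825-54204124, - strand): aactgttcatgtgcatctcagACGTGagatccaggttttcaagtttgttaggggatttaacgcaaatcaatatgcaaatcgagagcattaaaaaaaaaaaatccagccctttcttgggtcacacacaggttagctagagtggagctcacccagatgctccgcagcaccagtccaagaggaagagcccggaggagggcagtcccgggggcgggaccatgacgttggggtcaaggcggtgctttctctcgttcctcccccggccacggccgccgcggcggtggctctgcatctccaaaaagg
P4ha2 (chr11:54100674-54100973, + strand): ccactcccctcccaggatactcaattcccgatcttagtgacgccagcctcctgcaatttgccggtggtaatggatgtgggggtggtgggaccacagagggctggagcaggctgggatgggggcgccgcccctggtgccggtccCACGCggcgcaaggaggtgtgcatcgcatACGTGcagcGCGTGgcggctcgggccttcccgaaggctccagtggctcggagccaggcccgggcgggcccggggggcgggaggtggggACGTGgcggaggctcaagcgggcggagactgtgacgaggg
Ankrd37 (chr8:45999801-46000100, - strand): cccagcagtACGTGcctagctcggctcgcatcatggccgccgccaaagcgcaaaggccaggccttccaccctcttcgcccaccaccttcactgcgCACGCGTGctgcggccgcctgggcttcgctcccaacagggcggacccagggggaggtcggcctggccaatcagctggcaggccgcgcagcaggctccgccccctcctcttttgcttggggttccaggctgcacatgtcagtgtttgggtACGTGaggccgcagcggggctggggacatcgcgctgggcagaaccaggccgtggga
Bnip3 (chr7:138909457-138909756, - strand): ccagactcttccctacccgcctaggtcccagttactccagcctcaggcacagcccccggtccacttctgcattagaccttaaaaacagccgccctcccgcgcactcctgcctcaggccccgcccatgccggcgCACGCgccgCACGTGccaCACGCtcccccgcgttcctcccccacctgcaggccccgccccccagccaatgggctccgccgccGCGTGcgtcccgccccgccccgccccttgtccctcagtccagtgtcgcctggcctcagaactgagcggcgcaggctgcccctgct
Ldha (chr7:46845554-46845853, + strand): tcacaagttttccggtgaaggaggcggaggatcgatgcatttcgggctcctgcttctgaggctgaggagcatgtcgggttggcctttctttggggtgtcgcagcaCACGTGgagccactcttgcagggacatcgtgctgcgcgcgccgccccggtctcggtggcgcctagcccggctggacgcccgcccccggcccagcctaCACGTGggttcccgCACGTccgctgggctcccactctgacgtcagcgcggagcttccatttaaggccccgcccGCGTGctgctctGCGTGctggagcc
The Adm window held 2 matches, that of Egln3 1, those of P4ha2 and Ankrd37 4 each, that of Bnip3 5 and that of Ldha 7, where the palindrome CACGTG counts on both strands and overlapping matches share capitals.

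Promoters were found for 29 of the 31 genes, all but Ndrg1 and Bnip3l, and there were 42 in all, since some genes have several annotated starts. A match was present in 34 of the 42 (81.0%), against 60.7% of the 12940 promoters of tested genes and 43.8% of all 32851. At least 2 matches were present in 25 of the 42 (59.5%), against 32.9% for tested genes. Some of the 42 overlap, as for Eno1, Aldoa and Pfkm, so the same match can count more than once. By gene, 27 of the 29 (93.1%) had a match in some promoter, against 46.7% of all 27025 genes. The share by gene among tested genes was not computed. Both the 42 promoters and those of tested genes had a median of 20 CpG dinucleotides. The palindrome CACGTG, which other factors also bind, stood in 4 of the 42 and in 9.92% of the promoters of tested genes. Genes of low spread had matches too, with 3 in the P4ha1 window and 3 in 1 of the Pfkm windows. Ldha has a second annotated start, whose window held 2. Whether the number of matches goes with the spread between libraries was not tested. A match describes the sequence only and is not a measured site of binding.

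Levels of different genes were compared per length, as RPKM, which corrects counts for the length of the gene and the depth of the library and was computed by the authors. By mean RPKM over the 10 libraries Aldoa was highest at 853, followed by Ldha at 409, Tpi1 at 339, Pkm at 303, Hk3 at 125, Slc16a3 at 112 and Vegfa at 101. Below these 7 stood Slc2a1 at 98.9, Eno1 at 85.5, Gpi1 at 78.1, P4ha1 at 61.1 and Mif at 54.7, and 7 genes were under 10 RPKM. The 12 genes with over 5% of windows shared, among them Aldoa, Ldha, Tpi1 and Pkm, could have lost reads to the rule of unique alignment, so their places in this order are less certain. Slc16a3, Vegfa and Slc2a1 were neighbours whose levels lay within their spread over libraries, for example 106 ± 26.5 RPKM for Slc16a3 and 92.5 ± 12.8 RPKM for Slc2a1 in the controls (SD, n = 5).

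The mix of isozymes was compared as a share of summed RPKM in each library. Hk3 made up 79.95 ± 3.47% of the 3 hexokinases after anti-gp120 and 81.4 ± 1.49% after anti-MerTK (SD, n = 5 each, exact permutation p = 0.397), and Hk2 made up 7.94 ± 1.71% and 7.68 ± 1.02% (exact p = 0.770). Ldha made up 97.4 ± 1.0% and 98.7 ± 0.468% of the summed Ldha and Ldhb, higher than the control mean in 5 of 5 anti-MerTK libraries (exact permutation p = 0.0397, adjusted p = 0.222 over the 8 shares). Ldhb itself stood at 9.67 ± 3.16 and 5.84 ± 1.71 RPKM. Slc2a1 made up 78.3 ± 4.19% of the transporters Slc2a1, Slc2a3 and Slc2a6 after anti-gp120 and 71.2 ± 6.10% after anti-MerTK. This share was below the control mean in 5 of 5 anti-MerTK libraries (exact permutation p = 0.0556, adjusted p = 0.222). Slc2a1 itself was not lower, at 92.5 ± 12.8 RPKM after anti-gp120 and 105 ± 19.9 RPKM after anti-MerTK. Slc2a6 stood at 24.7 ± 5.81 and 41.0 ± 7.62 RPKM. The shares of Pfkp, Slc16a3, Pdk1 and P4ha1 had exact permutation p-values from 0.278 to 0.960. In all 8 shares the groups overlapped, and the smallest two-sided p that 5 libraries against 5 allow is 0.00794.

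**Figure D5:**
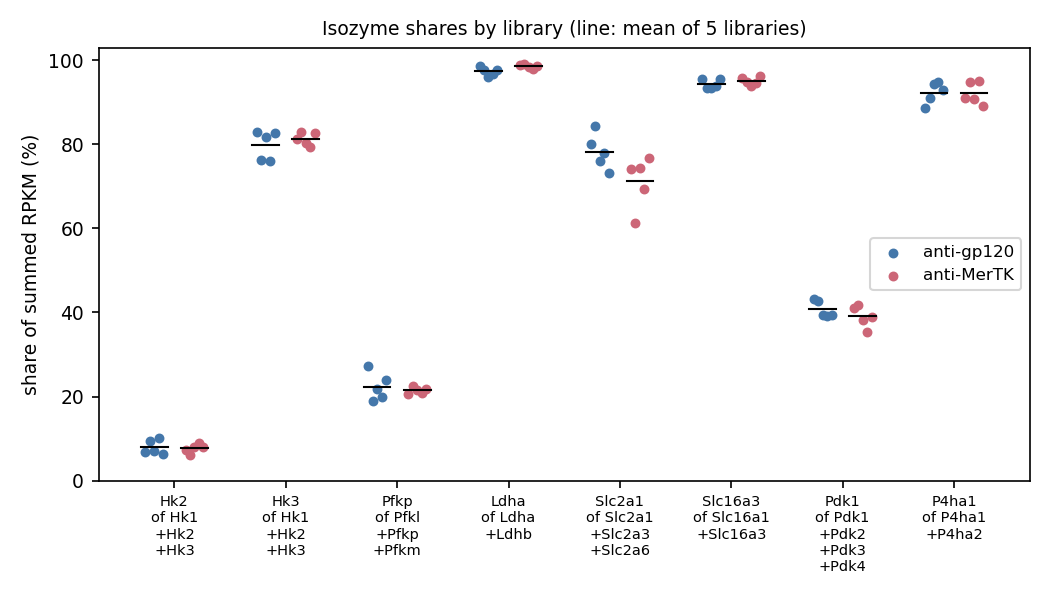
Share of each of 8 genes in the summed RPKM of its isozymes, in percent, with 1 point per library and a line at each group mean. The anti-MerTK points for the share of Slc2a1 lie lower (61.4 to 76.8%) than most control points (73.2 to 84.3%), and in every share the groups overlap.

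Genes of the same pathways outside the set were examined by list. Of 20 other glycolytic isozymes and sugar transporters, 15 were tested, 1 was called higher, 1 was called lower and the median log2 fold change was -0.06. Slc2a6, a lysosomal hexose transporter of myeloid cells, read 56.3, 36.9, 47.8, 52.3 and 70.3 CPM after anti-gp120 and 79.7, 114, 69.9, 86.8 and 86.6 CPM after anti-MerTK. The groups overlapped only at control replicate 5 and anti-MerTK replicate 3, and the gene rose by 0.73 (log2, SE 0.17, edgeR adjusted p = 0.0411). The call for Slc2a6 was lost when any single library other than anti-gp120 replicate 5 or anti-MerTK replicate 5 was left out (edgeR adjusted p from 0.0538 to 0.107), and also without the filter on low counts (adjusted p = 0.0735), without anti-MerTK replicates 2 and 5 (0.136) and without anti-gp120 replicate 1 and anti-MerTK replicate 5 (0.0642). Over its 20 alternatives the adjusted p of Slc2a6 ranged from 0.000768 to 0.136. Aldoc, the aldolase C isozyme, read 54.9, 49.4, 53.1, 51.3 and 56.9 CPM in the controls and 35.8, 41.9, 41.3, 36.8 and 43.9 CPM after anti-MerTK. All anti-MerTK libraries lay below all controls, a separation that 2.71% of all genes tested showed in this direction, while 0 of the 31 genes of the set showed one in either direction, against 5.97%. Aldoc fell by 0.41 on the log2 scale (SE 0.07, edgeR adjusted p = 0.0152), and its adjusted p stayed at or below 0.0484 in the 20 alternatives run.

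Cited2 was the other gene to pass. It encodes a protein that HIF-1 induces and that competes with HIF-1 alpha for its coactivator. Cited2 read 197, 197, 195, 193 and 191 CPM after anti-gp120 and 289, 315, 288, 268 and 270.3 CPM after anti-MerTK, with no overlap between groups. It rose by 0.56 (log2, SE 0.06, edgeR adjusted p = 0.00441). Of the 10 listed HIF subunits and oxygen sensors 8 were tested, Cited2 was the 1 called, and the list's median was -0.09.

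The other lists held no call. Among 12 genes for pyruvate entry into mitochondria, 11 were tested, with a median of -0.10. The smallest p-values there belonged to Pdha1, the catalytic subunit of pyruvate dehydrogenase (log2 fold change -0.20, edgeR adjusted p = 0.118), and to Pdp2, its activating phosphatase (-0.27, adjusted p = 0.183). All 7 pentose phosphate genes were tested, with a median of 0.06, and the first were the dehydrogenase Pgd (0.17, edgeR adjusted p = 0.261) and the epimerase Rpe (0.09, adjusted p = 0.465). Of 24 other hypoxia-induced genes 23 were tested, 9 had positive values and the median was -0.04. Jmjd6, a hydroxylase, gave 0.27 (edgeR adjusted p = 0.0876). These medians stand beside -0.0059 over all genes tested.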

How the data were processed

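Polyadenylated RNA of purified tumour-associated macrophages was sequenced in 10 libraries, 5 per antibody. Per the file headers, the deposited counts are the reads with a unique alignment in each gene model. GSNAP and the build GRCm38 are named in the submitters' processing notes, without a version, read length or strand setting. The RPKM values were divided by a size factor per library by the authors, per the file headers.

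Of 36528 identifiers, 31049 were named from RefSeq (GRCm38.p6), and the 5479 unnamed genes (2.14% to 2.66% of counts) stayed in the fits. No pair of libraries agreed within sampling noise (smallest chi-square per degree of freedom 27.2). The 13588 genes kept by filterByExpr were tested with edgeR 4.0.16 (quasi-likelihood, TMM, robust, two-sided, Benjamini-Hochberg at 0.05). The SE is the log2 fold change divided by the square root of F. CPM used TMM library sizes. Isozyme shares were compared with an exact permutation test. The edgeR fit was also run on simulated counts with known changes. These were drawn independently for each gene and library, so that run does not cover shifts that many genes share within a library.

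Replicate numbers follow the order of deposition. The 31 genes, the pathway lists and the marker lists were chosen with earlier results of these data known. The text names the 31 genes, Mertk, every gene of a pathway list past the threshold (otherwise the 2 of smallest p), isozymes in a share and listed markers. A gene that this rule names is not reported here. Alternatives were other size factors (RLE, upper quartile, the authors'), other filters, DESeq2 1.42.0, limma-voom (limma 3.58.1), 1 surrogate variable (sva 3.50.0), an adjusted p under 0.01 and libraries left out.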

Additional observations from a re-analysis of the deposited data

Results flagged for a closer look

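Among 96 groups of 5 values screened, 3 held a library whose gap to its nearest neighbour was over 0.71 of the group's range, and chance alone marks about 1 in 20 such groups. Ldha stood at 938 CPM in anti-gp120 replicate 1, the highest of the 5 controls. Bnip3 stood at 30.2 CPM in anti-MerTK replicate 5, the highest of its group. Mertk stood at 70.5 CPM in anti-MerTK replicate 3, the lowest of its group.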

How the results depend on the processing

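Of 616 member estimates under the alternatives, 586 kept their direction and their side of the threshold, 27 changed sign and 3 passed the threshold, all for Bnip3l. Over the whole table the 251 higher and 187 lower genes became 601 and 551 with DESeq2, 526 and 510 with limma-voom, 152 and 52 without anti-MerTK replicates 2 and 5, 382 and 340 without anti-gp120 replicate 1 and anti-MerTK replicate 5 (chosen after seeing the data), and 13 and 2 at an adjusted p under 0.01. With 1 surrogate variable 381 genes were called higher. Leaving out single libraries gave 55 to 370 higher and 15 to 284 lower. Of the 31 genes, 1 was called lower with limma-voom and without anti-gp120 replicate 1 and anti-MerTK replicate 5, and 0 to 1 when single libraries were left out. Among other glycolytic isozymes and sugar transporters, the 1 higher gene became 0 without the filter and without anti-MerTK replicates 2 and 5, 2 with DESeq2, 2 with limma-voom and 0 to 2 when single libraries were left out; the 1 lower gene became 3 with DESeq2, 2 with limma-voom and 1 to 2. Among other hypoxia-induced genes, 2 were called higher with DESeq2, 1 with limma-voom and 0 to 1 when single libraries were left out, and 2 were called lower with limma-voom, 2 without anti-gp120 replicate 1 and anti-MerTK replicate 5 and 0 to 2 when single libraries were left out. The cause of these moves was not tested.

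Signs changed as follows. The log2 fold change of Pfkp was 0.00055 with upper quartile normalization, 0.018 with limma-voom, 0.16 without anti-gp120 replicate 1 and anti-MerTK replicate 5, and -0.10 to 0.18 when single libraries were left out. That of Egln3 was 0.0075 with upper quartile normalization, 0.029 with 1 surrogate variable and -0.28 to 0.22 when single libraries were left out. That of Ero1l was 0.0080 with 1 surrogate variable and -0.22 to 0.057. Without anti-MerTK replicates 2 and 5, Gapdh gave -0.0046, P4ha2 -0.0039 and Ndrg1 -0.064, and with single libraries left out P4ha2 ranged from -0.10 to 0.31, Ndrg1 from -0.092 to 0.39, Bnip3 from -0.44 to 0.025 and Gpi1 from -0.020 to 0.072. The difference in the share of Hk2 was 0.111 percentage points without anti-MerTK replicates 2 and 5 and -0.652 to 0.295 when single libraries were left out. That of Pfkp was 0.241 without anti-gp120 replicate 1 and anti-MerTK replicate 5 and -1.75 to 0.313, and that of P4ha1 was -1.10 to 0.570. The median log2 fold change of the 31 genes ranged from 0.07 to 0.27 when single libraries were left out and was 0.04 without anti-MerTK replicates 2 and 5. A filter of 5 CPM left 27 of the 31 genes tested, without Gapdh, Pgam1, Ankrd37 and Adm.

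No paired analysis was possible because the labels carry no replicate numbers. Low counts limit the precision for Adm, Ankrd37, Gapdh and Pgam1. Only unique alignments were counted, and how much this affects the 12 genes with over 5% of windows shared was not tested. Isozyme shares could not pass an adjusted p of 0.05 alone, since the smallest value for 1 of the 8 shares is 0.0635.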
